A study of Homo sapiens with 5 samples.

Results

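Esophageal type 2 inflammation genes are transcripts known from the mucosa in eosinophilic esophagitis, an allergic disease in which eosinophils enter the esophageal lining and in which CDH26 is itself among the raised transcripts. The set holds 10 genes chosen by name: CCL26, CCL24, CAPN14, ALOX15, TSLP, IL33, IL4R, CISH, SOCS1 and TNFAIP6. Of these, 9 had a named probe set and were measured, among 14812 named genes in all. TNFAIP6, a secreted hyaluronan-binding protein, had none in the annotation used here and was not analysed.

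RNA came from TE7, a human esophageal cancer cell line, as 3 clones transduced with pMIRNA1-puro-CDH26 (CDH26 clones) and 2 clones transduced with pMIRNA1-puro-control (control clones). Each clone was grown from a single cell, so clone and construct effects are both part of a group difference, and all clones shared the same vector backbone and 24 h in RPMI with 1.8 mM calcium. None is labelled as having received a cytokine, and the cultures hold 1 cell line with no immune cells described. Each clone was measured on 1 Affymetrix Gene 2.0 ST array.

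The values are logarithms, read here as log2, of each clone over the average of both control clones. They hold differences between clones and no expression level, so whether a gene lay above background, and whether TE7 expresses its epithelial markers, could not be checked. A value near 0 in every clone therefore cannot separate a transcript that is present and steady from one that is not detected. In these bulk cultures, fewer cells with a transcript and less transcript per cell cannot be told apart.

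In type 2 inflammation the cytokines IL-4 and IL-13 bind receptors that contain the IL-4 receptor alpha chain, encoded by IL4R, and activate Janus kinases and the transcription factor STAT6. In esophageal epithelium this pathway is known to raise the eosinophil attractant CCL26, the protease CAPN14 and the lipoxygenase ALOX15. The epithelial cytokines TSLP and IL-33 act earlier, on the immune cells that make IL-4 and IL-13, and CISH and SOCS1 encode inhibitors that STAT proteins induce and that dampen the same signal. The comparison asked whether CDH26, which accompanies these genes in the disease, moves them when it is expressed alone in epithelial cells.

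The sequence before the transcription start was taken from RefSeq on GRCh38.p14 for 8 of the 9 measured genes. It is shown for 3 of them: CISH, the 1 gene in which no control clone reached the CDH26 clones, SOCS1, the feedback gene with the largest difference in size, and CCL26, the chemokine that leads the disease profile. The 250 bases before each start were searched on both strands for TTCNNNGAA, the general STAT motif, and for TTCNNNNGAA, the spacing that STAT6 prefers. Both motifs read the same on either strand and no matches overlapped. Matches are in capitals.
CISH, chr3:50611775-50612024, minus strand: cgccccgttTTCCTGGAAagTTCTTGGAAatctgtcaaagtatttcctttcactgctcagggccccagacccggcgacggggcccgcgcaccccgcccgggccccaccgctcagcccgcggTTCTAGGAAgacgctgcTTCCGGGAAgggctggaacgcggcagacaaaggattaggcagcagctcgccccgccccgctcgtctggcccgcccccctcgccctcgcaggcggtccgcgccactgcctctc
SOCS1, chr16:11256205-11256454, minus strand: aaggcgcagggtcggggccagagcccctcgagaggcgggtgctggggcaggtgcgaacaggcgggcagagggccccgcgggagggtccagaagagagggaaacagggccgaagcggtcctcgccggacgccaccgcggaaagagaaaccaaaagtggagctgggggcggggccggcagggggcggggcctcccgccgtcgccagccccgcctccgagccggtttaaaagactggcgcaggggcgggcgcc
CCL26, chr7:75789747-75789996, minus strand: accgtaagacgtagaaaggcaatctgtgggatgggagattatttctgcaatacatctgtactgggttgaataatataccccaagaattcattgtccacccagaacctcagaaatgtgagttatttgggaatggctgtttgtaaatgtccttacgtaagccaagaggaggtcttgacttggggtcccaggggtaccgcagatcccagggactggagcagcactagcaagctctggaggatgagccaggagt
CISH held 4 matches to TTCNNNGAA, which begin 241, 230, 129 and 112 bases before the start, and 0 to TTCNNNNGAA. Of 27305 promoters of the same length, 6.78% held at least 1 match to TTCNNNGAA, 5.35% held TTCNNNNGAA and 4 promoters held as many as 4 matches to TTCNNNGAA. The other 7 genes with a sequence held neither motif in this window, which says only that these letters are not there. Thus 1 of the 8 held either motif, beside 11.6% of the 27305 promoters.

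CDH26, the gene carried by the construct, was higher in the clones that carried it. It stood at 2.87, 3.01 and 2.63 in the clones with the CDH26 construct, against 0.01 and −0.01 in those with the control construct, a difference of 2.84 ± 0.13 log2 units (SE). The groups did not overlap, although the adjusted p of limma over all genes was 0.25. At an adjusted p of 0.05, 0% of the 14812 genes were called, and at an unadjusted p of 0.05 7.51% were. Without regard to a test, CDH26 clones were all above both controls in 8.98% of genes and all below in 9.93%.

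None of the 9 type 2 genes passed the adjusted threshold, beside 0% of all genes, and the smallest adjusted p among them was 0.626 (limma). None passed the unadjusted threshold either, beside 7.51% of all genes. CISH came closest, with an unadjusted p of 0.123 (limma). The mean was higher with the CDH26 construct in 7 of the 9 and lower in 2, and over all genes 47.9% had a higher and 49.5% a lower mean. The median difference over the 9 genes was 0.03 log2 units, against 0.00 over all genes tested. In 8 genes the groups overlapped, and in 1, CISH, the CDH26 clones lay wholly above, beside 8.98% of all genes. With 3 clones against 2, an exact permutation of the labels has 10 splits and cannot give a p under 0.1, so none was used for single genes.

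**Figure D1:**
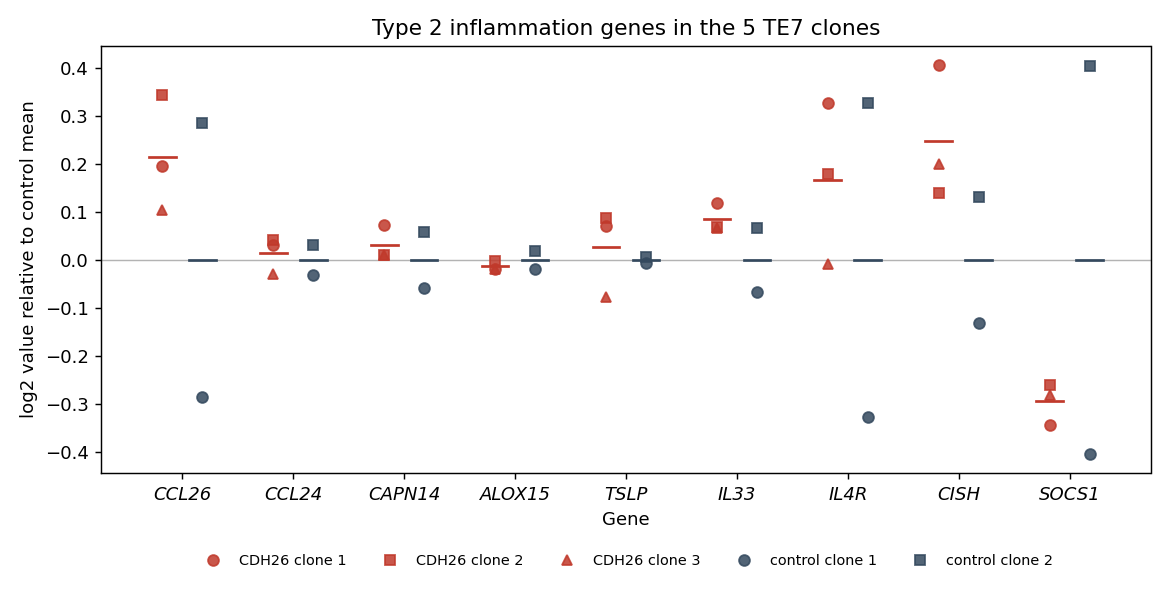
Log2 value relative to the control mean (vertical axis) of the 9 measured type 2 inflammation genes (horizontal axis) in each TE7 clone. CDH26 clones are red and stand left of the control clones in dark grey, and bars mark group means; the control clones lie far apart in SOCS1, IL4R and CCL26, and ALOX15 and CCL24 hardly vary.

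The eotaxins CCL26 and CCL24 are chemokines that draw eosinophils through the receptor CCR3. CCL26, or eotaxin-3, had values of 0.20, 0.34 and 0.10 in the CDH26 clones, in order of number, against −0.29 in control clone 1 and 0.29 in control clone 2. All CDH26 clones lay above control clone 1 and 1 of them also above control clone 2, so the groups overlapped. The difference was 0.21 ± 0.20 log2 units (SE; 95% interval −0.36 to 0.79; adjusted p = 0.695, limma), or 1.16-fold. It was 0.50 against control clone 1 alone and −0.072 against control clone 2 alone, so its direction rested on control clone 1.

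CCL24, or eotaxin-2, had values of 0.031, 0.041 and −0.030 in the CDH26 clones, against −0.031 and 0.031 in the control clones. The 5 clones spanned 0.07 log2 units, a narrower range than in most genes, and CDH26 clone 1 had the same value as control clone 2. The difference was 0.014 ± 0.037 (SE; 95% interval −0.09 to 0.12; adjusted p = 0.891, limma). The third eotaxin, CCL11, which is made mainly by stromal cells, differed by 0.08 ± 0.07 (adjusted p = 0.659, limma).

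CAPN14 and ALOX15 encode enzymes that IL-13 is known to induce in epithelium. CAPN14, a calpain protease found largely in the esophagus, was at 0.072, 0.011 and 0.011 in the CDH26 clones, against −0.059 and 0.059 in the control clones. CDH26 clones 2 and 3, which were tied, lay between the control clones, and CDH26 clone 1 exceeded both. The difference was 0.031 ± 0.048 (SE; 95% interval −0.10 to 0.17; adjusted p = 0.801, limma). It turned to −0.028 without control clone 1.

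ALOX15, which oxygenates arachidonic and linoleic acid, was at −0.019, −0.002 and −0.019 in the CDH26 clones, against −0.019 and 0.019 in the control clones. Only 3 distinct values occurred on the 5 arrays, since control clone 1 and CDH26 clones 1 and 3 were tied. The whole range was 0.04 log2 units, smaller than in all but 8.3% of genes. The difference was −0.013 ± 0.022 (SE; 95% interval −0.07 to 0.05; adjusted p = 0.817, limma).

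TSLP and IL33 encode the epithelial alarm cytokines. TSLP, averaged over its 2 probe sets, differed by 0.027 ± 0.062 (SE; 95% interval −0.15 to 0.20; adjusted p = 0.874, limma). Its probe sets did not vary alike. The one annotated to the protein-coding transcript gave 0.14, 0.19 and −0.13 in the CDH26 clones, against 0.00 in both control clones, and the one annotated to a non-coding transcript gave 0.006, −0.014 and −0.024, against −0.014 and 0.014. In the coding probe set CDH26 clones 1 and 2 lay above the controls and CDH26 clone 3 below them. Without CDH26 clone 3 the averaged difference was 0.080 at an unadjusted p of 0.0289 (limma; adjusted p = 0.444), a setting in which 9.66% of all genes passed the unadjusted threshold.

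IL33 encodes a nuclear cytokine that is released from damaged cells. It was at 0.118, 0.068 and 0.067 in the CDH26 clones, against −0.067 and 0.067 in the control clones. No CDH26 clone lay below a control clone, while CDH26 clone 3 and control clone 2 were tied. The difference was 0.084 ± 0.051 (SE; 95% interval −0.06 to 0.23; adjusted p = 0.626, limma), and it was 0.018 against control clone 2 alone. Against control clone 1 alone it was 0.15 (limma, adjusted p = 0.281). In that setting IL33 and CCL26 passed the unadjusted threshold, as did 12.8% of all genes.

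IL4R encodes the receptor chain shared by IL-4 and IL-13 signalling. Its values were 0.33, 0.18 and −0.01 in the CDH26 clones, against −0.33 and 0.33 in the control clones. CDH26 clone 1 had nearly the same value as control clone 2, and every CDH26 clone lay above control clone 1. The difference was 0.17 ± 0.24 (SE; 95% interval −0.51 to 0.84; adjusted p = 0.792, limma). It was 0.49 against control clone 1 and −0.16 against control clone 2, a span wider than the difference itself.

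CISH and SOCS1, the feedback inhibitors, had the largest differences of the set in size and opposite signs. CISH was at 0.40, 0.14 and 0.20 in the CDH26 clones, against −0.13 and 0.13 in the control clones. All CDH26 clones lay above both control clones, CDH26 clone 2 by 0.008 log2 units over control clone 2. The difference was 0.25 ± 0.13 (SE; 95% interval −0.11 to 0.60; adjusted p = 0.626, limma), or 1.19-fold, with 0.12 against control clone 2 alone and 0.38 against control clone 1 alone. CISH is the gene whose promoter, printed above, held the 4 STAT motif matches, and a link between these and its values was not tested.

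SOCS1 was at −0.34, −0.26 and −0.28 in the CDH26 clones, against −0.40 and 0.40 in the control clones. The 3 CDH26 clones lay close together, with an SD of 0.04, and all of them lay between the control clones and near control clone 1. The difference was −0.29 ± 0.27 (SE; 95% interval −1.04 to 0.45; adjusted p = 0.68, limma). Against control clone 2 alone it was −0.70 with an unadjusted p of 0.00121 (limma; adjusted p = 0.0606), where 20.4% of all genes passed the unadjusted threshold. Against control clone 1 alone it was 0.11, in the other direction.

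The control clones differed from each other by 0.81 log2 units in SOCS1, 0.65 in IL4R and 0.57 in CCL26. Gaps of at least 0.5 between the control clones occurred in 6.54% of all genes and in these 3 of the 9. In all 9 genes control clone 2 had the higher value, against 42.7% of all genes in which it did and 42.8% in which control clone 1 did. In 8 of the 9 the gap between the control clones was larger than the difference between the groups, and the share over all genes was not counted. The median gap was 0.13 and the median size of the difference 0.08 over the 9 genes. Over all genes these medians were 0.09 and 0.07, so the gap was the larger there too. CDH26 clone 2 lay above control clone 1 in all 9 genes and above control clone 2 in 5. CDH26 clone 3 lay above control clone 1 in 7 and above control clone 2 in 1. Control clone 1 was the lower control in all 9, so counts above it are partly set by the control values. Shares of all genes were not counted for these clone pairs.

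**Figure D2:**
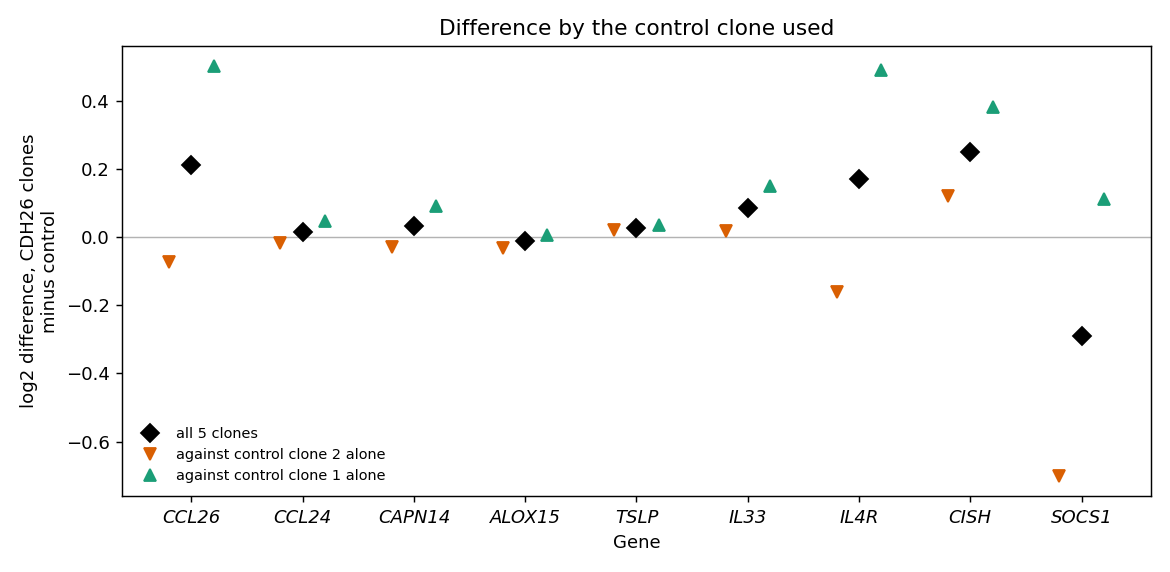
Log2 difference of the CDH26 clones from control (vertical axis) for each gene (horizontal axis) with all 5 clones, against control clone 2 alone and against control clone 1 alone. CCL26, CCL24, CAPN14, IL4R, ALOX15 and SOCS1 change sign with the control clone; TSLP, IL33 and CISH keep theirs.

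The 95% intervals bound the size of each difference, within the limits of 5 arrays. In all 9 genes the interval excluded a 2-fold higher value in the CDH26 clones, and in 8 it also excluded a 2-fold lower one. SOCS1, at −1.04, was the exception. The interval excluded both in 93.9% of all genes, so it is not a property of these genes. The tightest intervals were those of ALOX15 and CCL24, the genes with the smallest ranges, for which absence of detectable signal cannot be told apart from steady expression. With each clone left out in turn, the number that excluded both was 6, 7 and 6 without CDH26 clones 1, 2 and 3, and 9 and 8 without control clones 1 and 2. It was 6 if the values are natural logarithms and 5 with the replicate number as a block.

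**Figure D3:**
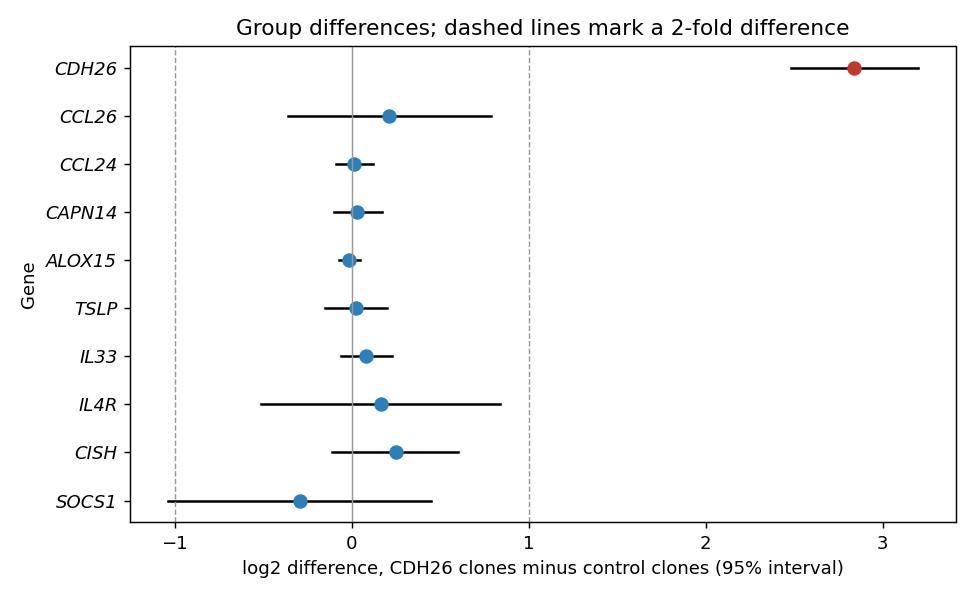
Log2 difference between CDH26 and control clones (horizontal axis, points) with limma 95% intervals (lines) for CDH26 and the 9 type 2 inflammation genes (vertical axis). The CDH26 interval runs from 2.48 to 3.20, while those of all 9 genes include 0 and only that of SOCS1 passes a dashed 2-fold line.

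Genes whose pattern across the 5 clones was nearest to that of SOCS1, the gene of the set with the largest difference in size, were MAP1B, SRGN and ATF3, at Euclidean distances of 0.07, 0.09 and 0.11 log2 units. MAP1B, a microtubule-associated protein, was at −0.30, −0.31 and −0.31 in the CDH26 clones, against −0.40 and 0.40 in the control clones. In each of these genes control clone 2 stood apart from the other clones, as in SOCS1. They were picked for nearness over these same 5 values, so the shared form follows from the choice.

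Other genes of the type 2 pathway were then read beside the set. Of 34 listed cytokines, receptors and JAK-STAT genes, 20 were measured and 0 passed the adjusted threshold, while 3 were higher and 2 lower at the unadjusted one, against 3.51% and 4% of all genes. The median of the 20 was 0.05. STAT6, IL13RA1, IL13RA2 and IL2RG, which complete the IL-4 and IL-13 receptors and their main transcription factor, had no named probe set and were not analysed.

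The 2 genes of this list with the smallest p were IRS2 and IL17RB. IRS2, an adaptor that docks on the IL-4 receptor as well as on the insulin receptor, was at −1.66, −1.63 and −0.90 in the CDH26 clones, against −0.26 and 0.26 in the control clones. The CDH26 clones lay wholly below, by −1.40 ± 0.33 log2 units (SE; unadjusted p = 0.0141, adjusted p = 0.626, limma). IL17RB, the receptor for the alarm cytokine IL-25, was at 0.26, 0.32 and 0.28, against −0.10 and 0.10, a difference of 0.28 ± 0.07 (unadjusted p = 0.0151, adjusted p = 0.626, limma). The groups overlapped in neither gene, and over the clones left out in turn the difference ranged from −1.66 to −1.14 for IRS2 and from 0.19 to 0.38 for IL17RB.

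Receptors for the 2 alarm cytokines of the set are encoded by IL1RL1 with IL1RAP, for IL-33, and by CRLF2 with IL7R, for TSLP. IL1RL1 was at 0.56, 0.45 and 0.17 in the CDH26 clones, against −0.07 and 0.07 in the control clones, a difference of 0.39 ± 0.14 (SE; unadjusted p = 0.0498, adjusted p = 0.626, limma). The CDH26 clones lay wholly above, with CDH26 clone 3 nearest to the controls, and the difference ranged from 0.31 to 0.50 over the clones left out. IL1RAP differed by 0.18 ± 0.17 with overlap. IL7R was at 1.15, 0.95 and 0.37, against −0.58 and 0.58, so CDH26 clone 3 lay between the control clones, and its difference of 0.83 ± 0.46 became 0.24 against control clone 2 alone and 1.41 against control clone 1 alone. CRLF2 differed by −0.23 ± 0.13 with overlap.

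Among the kinases and STAT proteins, JAK1 differed by 0.01 ± 0.03 log2 units (SE), TYK2 by 0.14 ± 0.09, STAT5A by −0.15 ± 0.17 and STAT5B by −0.03 ± 0.02, with overlap in each. JAK2, at 0.15 ± 0.05, and IL17RA, at −0.12 ± 0.04, were the remaining genes of the list at an unadjusted p under 0.05 and are named after their values were seen. Of 13 other SOCS and STAT feedback genes 9 were measured, and 0 passed either threshold, beside 0% and 7.51% of all genes. Their median was 0.07, and SOCS6 and PIM2 had the smallest p, with differences of −0.19 ± 0.10 and 0.10 ± 0.05.

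Transcripts that IL-13 or the disease raises elsewhere ran from −0.43 to 0.94 in difference. Of 42 listed, 24 were measured, with a median of 0.03. At the unadjusted threshold 1 was higher and 0 lower, beside 3.51% and 4% of all genes. The 1 was IL18, an interleukin-1 family cytokine, at 0.36, 0.54 and 0.24 in the CDH26 clones, against −0.02 and 0.02 in the control clones (difference 0.38 ± 0.10, SE; unadjusted p = 0.023, adjusted p = 0.626, limma). The histamine receptor HRH1 had the next smallest p, at 0.17 ± 0.08. Periostin (POSTN) had no named probe set and was not analysed.

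Epithelial transcripts that are lower in the disease were also listed, 33 genes of which 22 were measured. Their median was 0.01, with 1 higher and 0 lower at the unadjusted threshold, beside 3.51% and 4% of all genes. IL1RN, the interleukin-1 receptor antagonist, was the 1 higher, at 0.34, 0.58 and 0.24 in the CDH26 clones, against −0.11 and 0.11 in the control clones (0.38 ± 0.14, SE; adjusted p = 0.626, limma), and CRISP3 differed by −0.11 ± 0.05. DSG1, a desmosomal cadherin lost in the disease, differed by −0.01 ± 0.03, and filaggrin (FLG), a barrier protein, by 0.04 ± 0.07.

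Relatives of CAPN14 and ALOX15 were read next. The 11 other calpain genes measured of 16 had a median of 0.00, with CAPN15 at −0.11 ± 0.04 log2 units (SE) and CAPN5 at 0.10 ± 0.06. The 9 other lipoxygenase pathway genes of 13 had a median of −0.01, with PEBP1, a lipoxygenase-binding protein, at −0.33 ± 0.09 and LTA4H at 0.11 ± 0.07. CAPN15 and PEBP1 were the only members of these lists at an unadjusted p under 0.05 (0.048 and 0.0242, adjusted p = 0.626 for each, limma). Of all genes 7.51% passed that threshold. The 12 hyaluronan genes of 18, partners of TNFAIP6, had a median of 0.02 and 0 at that threshold, with CD44 at −0.14 ± 0.09 and CEMIP2 at −0.44 ± 0.38.

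Chemokines and danger cytokines other than the members covered a wider range of differences than the members, as did the type 2 pathway list, from −1.40 to 0.83. The 15 chemokines measured of 18 had a median of 0.01 and a range of −1.16 to 0.12. None passed the unadjusted threshold, beside 7.51% of all genes. CXCL8, a neutrophil attractant, gave the lower end, at −1.58, −0.80 and −1.09 in the CDH26 clones, against −0.62 and 0.62 in the control clones, and CXCL16 differed by −0.43 ± 0.21. CXCL8 was at −1.78 against control clone 2 alone and −0.54 against control clone 1 alone. The 11 alarmins and danger cytokines measured of 18 ran from −0.87 to 1.47 with a median of 0.05, and after IL18 the smallest p was that of IL11, at −0.40 ± 0.18.

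**Figure D4:**
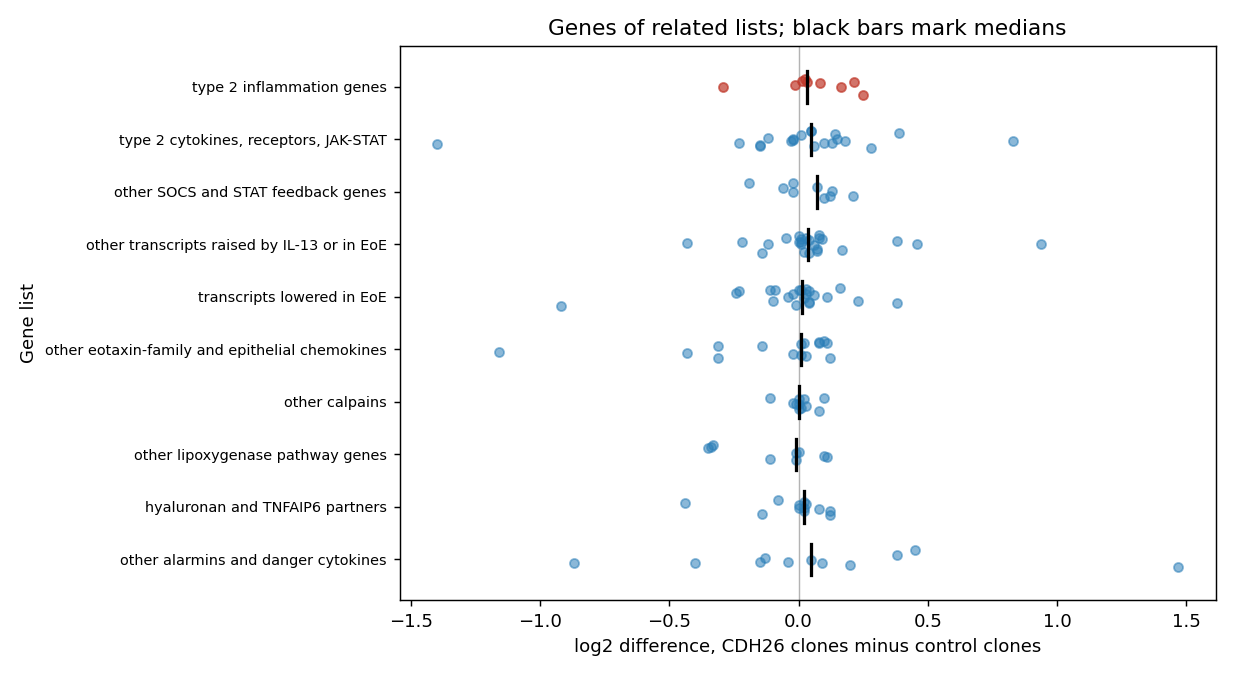
Log2 difference between CDH26 and control clones (horizontal axis) of each measured gene (points) in the type 2 inflammation set and 9 related gene lists (vertical axis; EoE is eosinophilic esophagitis). Black bars mark list medians, which lie between −0.01 and 0.07. CXCL8 and IRS2 are the points farthest to the left. S100A8, at 1.47 with overlapping groups and named after its value was seen, is farthest to the right.

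Markers of other cells were counted by difference only, since no level is held and which of them are at 0 cannot be read. Eosinophil markers (4 measured of 11) had a median of −0.05, mast cell and basophil markers (7 of 10) 0.02 and T cell and ILC2 markers (10 of 14) −0.03. Each of these short lists had 0 genes at the unadjusted threshold, beside 7.51% of all genes. CLC and SIGLEC8 of eosinophils differed by −0.10 ± 0.05 and −0.12 ± 0.10 log2 units (SE), TPSAB1 and KIT of mast cells by −0.17 ± 0.08 and 0.10 ± 0.05, and GATA3 and LCK by −0.30 ± 0.13 and −0.32 ± 0.19. Of 6 myeloid markers (median 0.02) CD68, a lysosomal protein, was higher at the unadjusted threshold (1.07 ± 0.33) and CD14 was at −0.04 ± 0.04. Of 5 fibroblast and endothelial markers (median 0.01) LUM, the proteoglycan lumican, was higher (1.59 ± 0.42), and THY1 was at −0.16 ± 0.10. The 14 squamous and columnar epithelial markers measured of 17 had a median of 0.05, with 8 higher and 6 lower means. At the unadjusted threshold 2 were higher and 0 lower, beside 3.51% and 4% of all genes. The 2 were KRT14 and KRT19, at 2.72 ± 0.43 and 0.35 ± 0.11. In 5 of the 14 the CDH26 clones lay wholly above and in 1 wholly below, beside 8.98% and 9.93% of all genes. The 5 were KRT14, KRT19, SOX2, KRT5 and IVL. After KRT14 the largest positive differences were those of SOX2, KRT13 and KRT5, with overlap in KRT13. The lowest were the keratins KRT7, at −0.41 with the CDH26 clones wholly below, KRT18, at −0.29, and KRT8, at −0.22. The adhesion molecule EPCAM was also at −0.22. Apart from KRT14 and KRT19, these markers are named after their values were seen. The adjusted p of limma was at least 0.626 for each of these genes, and their part in the values of the type 2 genes was not tested.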

How the data were processed

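Total RNA of 5 TE7 clones was hybridised to Gene 2.0 ST arrays, per the labels' protocols. Affymetrix Expression Console is named in the submitters' processing notes; how it summarised and normalized, and on which build, is not given in the sources used here. The authors' deposited values are logarithms, taken here as log2, centred by the authors on the control mean: the control columns sum to 0 within 1e-06 in every row. Of 44607 probe sets, 15835 carried 1 gene name and 0 several. Probe sets of a gene were averaged (651 genes had more than 1), and the groups were compared over 14812 genes in R 4.3.3 with limma 3.58.1 (lmFit, then eBayes without trend, two-sided, Benjamini-Hochberg adjustment over all genes, threshold 0.05). No filter on dim genes was possible without levels. The number of arrays limits the precision. Ties within 1e-05 between arrays were common, and 46.3% of genes had no tie. The labels do not say whether clones came from separate transductions, so p-values measure the spread between these clones.

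The members, lists and tests were chosen with earlier results of these data known. Named are all measured members, their direct partners, the 2 genes of each list with the smallest p and the 3 genes nearest to the member with the largest difference. Genes named after their values were seen are marked as such. Lists are described by counts and medians. On simulated data with independent normal noise, the limma step was checked for recovery of the mean planted difference, with no requirement on the genes called. Alternatives were a single probe set per gene, robust variance with and without trend, array weights, median centring, a replicate block, each clone left out, natural logarithms and genes without ties. Promoters are RefSeq's on GRCh38.p14. Figures were drawn with matplotlib 3.10.9.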

Additional observations from a re-analysis of the deposited data

How the results depend on the processing

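Of 113 values of the 9 genes under 13 alternatives, 106 kept their direction and stayed short of the adjusted threshold, and 7 changed sign, all with a clone left out. Over the clones left out, the range was −0.072 to 0.50 for CCL26, −0.017 to 0.046 for CCL24, −0.028 to 0.090 for CAPN14 and −0.16 to 0.49 for IL4R, each negative only without control clone 1. It was −0.70 to 0.11 for SOCS1 and −0.032 to 0.006 for ALOX15, each positive only without control clone 2, and −0.003 to 0.080 for TSLP, negative only without CDH26 clone 2. The cause was not tested. The smallest adjusted p of any of the genes was 0.0606 (limma), for SOCS1 without control clone 1. With each clone left out in turn, 0 to 2 of the 9 genes reached an unadjusted p of 0.05 (IL33 and CCL26 without control clone 2), their median difference ran from −0.03 to 0.11, the genes called overall numbered 0 to 186 (186 without control clone 1, 0 in the other settings), and CDH26 was at 2.75 to 2.94. A lone control clone is assumed there to vary like the CDH26 clones. With only genes that differed on each array, 5 of the 9 remained and fewer genes were tested: the median was 0.17, and 1 gene was called, CDH26, at 2.84 with an adjusted p of 0.0106 (limma). With the replicate number as a block, CDH26 was at 2.94, the genes called were 0 and the median was 0.08. Deviations of same-numbered clones correlated at −0.2 and −0.21 across genes. The deviations of the 2 control clones mirror each other, so these values are not separate checks and cannot decide whether the numbers mark pairs. The numbers were not taken as pairs in the main comparison. No brightness filter could be tried on centred values.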
